A study of Mus musculus with 12 samples.

Results

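The genes described here are the secreted Wnt ligands, their Frizzled (Fzd) and Lrp receptors, the R-spondins and Lgr receptors that amplify the signal, the secreted antagonists, and the feedback and nuclear genes that read or limit it, in bulk RNA-Seq of mouse back skin. They were chosen by symbol: every Wnt, Fzd, Rspo, Lgr4 to Lgr6, Dkk, Sfrp, Frzb, Wif1, Notum, Axin2, Nkd1, Nkd2, Znrf3, Rnf43, Lef1, Tcf7, Lrp5 and Lrp6 row of the count file. No measured difference entered this rule, but earlier results of these data were known when the genes were chosen. The rule matched 57 of 55453 rows. Of these, 55 had at least 10 counts over the 12 libraries, and 53 passed the filter on low counts that left 18311 genes to test. Wnt1 had 9 counts in all and Wnt8b had 6, while Dkk1, with 44 counts, and the antisense transcript Rspo4os, with 12, were counted but too low to test.

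The study compared wild type mice (WT, C57BL/6J) with mice lacking the surface glycoprotein Thy-1 (KO, female, 8 to 12 weeks old, backcrossed to C57BL/6 and bred beside littermate controls), each given saline (PBS) or bleomycin (BLM), a drug that injures skin and leaves it fibrotic, and its purpose was to ask what Thy-1 does in skin fibrosis. Bleomycin was injected under the skin of the back every day at 10 mg/kg for up to 14 days, and all skin was taken on day 21. Each of the 4 groups held 3 mice, 1 library per mouse: WT PBS (mice 159, 160 and 161), WT BLM (145, 146 and 147), KO PBS (136, 137 and 139) and KO BLM (141, 143 and 144). The ages and sex of the WT mice are not given in the sources used here. In every sentence below, 3 values for a group are in this order of mice.

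Wnt proteins are lipid-carrying signals that bind a Frizzled receptor together with Lrp5 or Lrp6. In the canonical branch, binding spares beta-catenin from a destruction complex that includes Axin, and beta-catenin then works with Lef1 or Tcf7 at target genes, among which are the pathway's own brakes. In skin this signal is known for starting and sustaining hair follicle growth and for acting on dermal fibroblasts in fibrosis.

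Library totals ran from 26473700 to 38890450 counts (median 31494965), and a value below is in CPM (counts scaled to a library of equal size) after TMM scaling. Thy1 itself was at 104 to 149.6 CPM in WT PBS, 231 to 416 in WT BLM, 45.6 to 96.9 in KO PBS and 84.7 to 128 in KO BLM. Its transcript was thus still counted in every KO mouse, though within each treatment the KO mice lay below the WT mice, by a log2 fold change of -0.75 ± 0.30 (adjusted p = 0.224) after PBS and -1.69 ± 0.31 (adjusted p = 0.112) after BLM. Lists of other genes also differed between the mice. On the growing-hair list, 29 of 30 genes that mark the shaft and root sheath, none of them a Wnt gene, were in the file, and their mean log2 CPM was 8.95 to 9.81 in WT PBS, -0.80 to 2.91 in WT BLM, 9.73, -1.40 and 1.68 in KO PBS and 8.61, 4.34 and 5.60 in KO BLM. KO PBS mouse 136 lay within the WT PBS range on this list and KO BLM mouse 141 just below it, and the counts of Wnt genes called in each comparison with KO mice are also given without them. Between WT BLM and WT PBS, 14 of 28 tested hair genes and 8 of 8 melanocyte genes were lower, and 11 of 12 skeletal muscle, 7 of 10 macrophage, 6 of 7 T cell, 5 of 10 fibroblast, 4 of 7 endothelial, 2 of 8 epidermal and 1 of 10 adipocyte genes were higher, while 4 of 7 dermal papilla genes were lower and 1 was higher. Of all 18311 genes tested, 14.1% were lower and 19.8% higher in the same test, so the epidermal count was near that share and the adipocyte count below it. Summed hair list levels were 52892 to 80247 CPM in WT PBS and 66.7 to 875 CPM in WT BLM, no gene of any of these lists was at 3 counts or fewer in all mice, and the epidermal and fibroblast lists were well counted in every library. Whether the Wnt differences in WT skin go with bleomycin or with the hair cycle cannot be told apart here, because all 3 WT PBS mice were high and all 3 WT BLM mice low on the hair list. In bulk tissue, fewer cells that express a gene and less of its RNA per cell cannot be told apart either.

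In WT skin, most of these genes were lower after bleomycin. Of the 53 tested, 30 fell and 4 rose at an adjusted p under 0.05 in edgeR's quasi-likelihood test, against 14.1% lower and 19.8% higher of all 18311 genes tested. Their median log2 fold change was -0.86, against 0.02 over all genes, and it was the same with Dkk4, which was at the count floor after bleomycin, set at its bound. In 32 genes all 3 WT BLM mice lay below all 3 WT PBS mice and in 5 all lay above, where 28.7% and 28.3% of all genes did so. By class, 7 of 7 feedback and nuclear genes fell, as did 5 of 7 R-spondins and Lgr receptors, 8 of 12 Fzd and Lrp receptors, 4 of 10 secreted antagonists and 6 of 17 ligands. The 4 that rose were the ligands Wnt9a and Wnt16, the receptor Fzd9 and the antagonist Frzb.

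**Figure D1:**
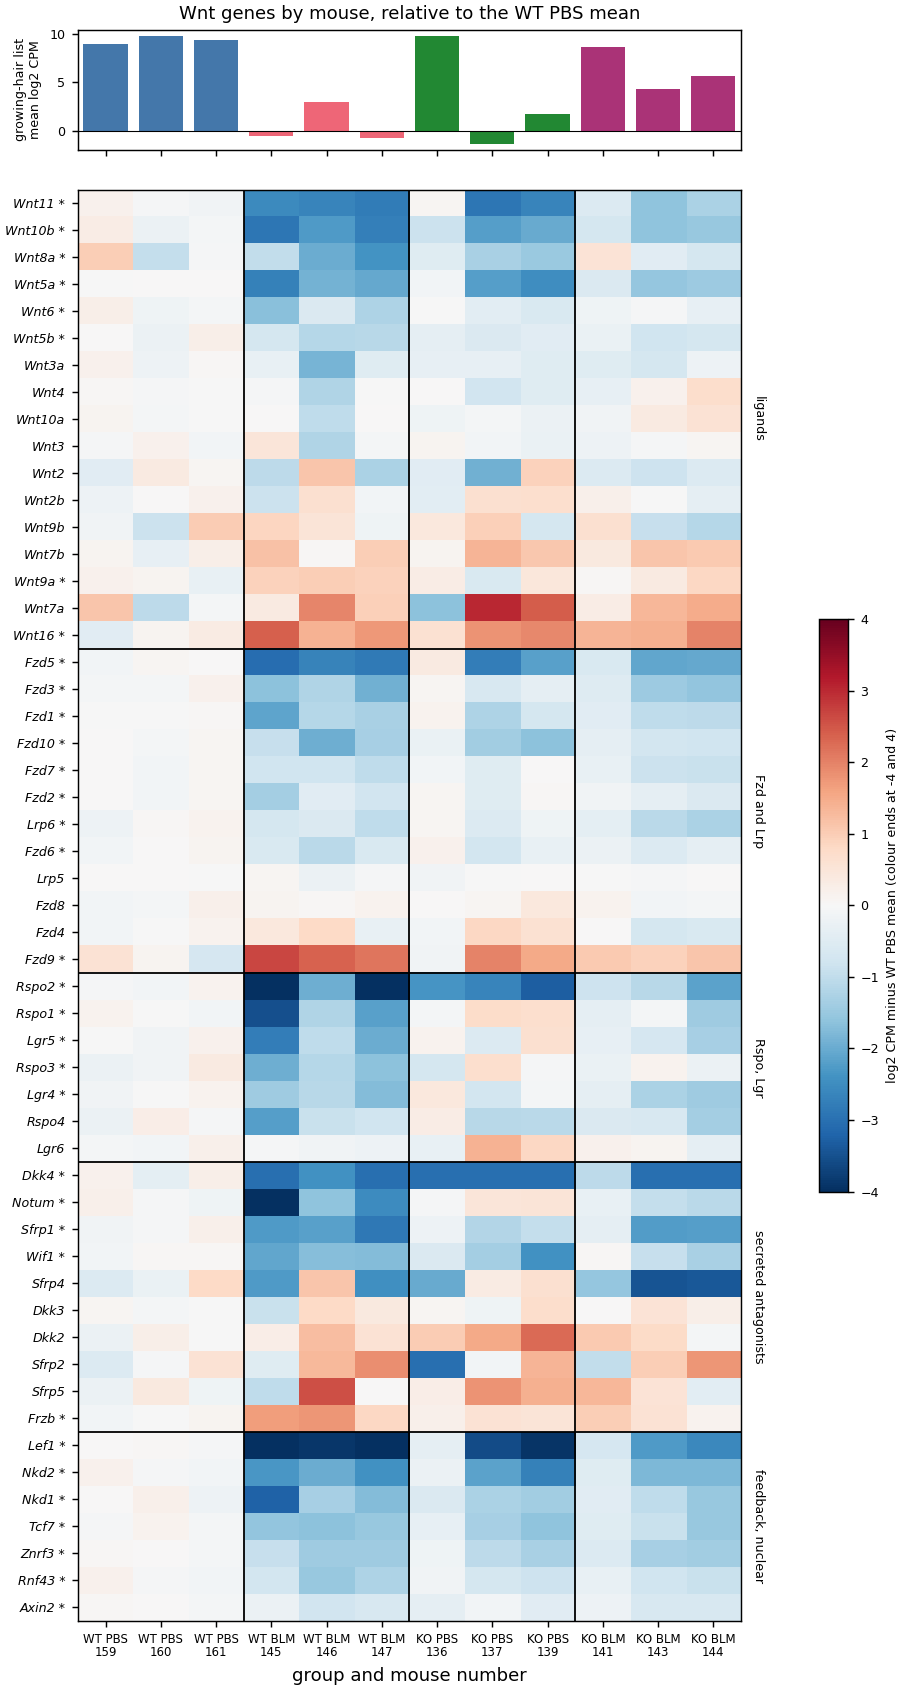
Each cell is the log2 CPM of 1 Wnt gene (rows, by class) in 1 mouse (columns, by group) minus the mean of the 3 WT PBS mice, with the colour scale ending at -4 and 4, and the bars above give the mean log2 CPM of the growing-hair list in the same mouse. Asterisks mark the 34 genes past an adjusted p of 0.05 between WT BLM and WT PBS. The columns of KO PBS mouse 136 and KO BLM mouse 141 are pale for Lef1, Wnt5a, Wnt11 and Fzd5 where those of their group mates are blue.

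Among the nuclear genes, Lef1, a DNA-binding partner of beta-catenin that is abundant in growing hair (chr3:131110471-131224356, plus strand, GRCm38), changed most. Lef1 stood at 120.1, 123 and 114 CPM in WT PBS and 2.27, 8.02 and 4.10 CPM in WT BLM, which gave a log2 fold change of -4.63 ± 1.02 (adjusted p = 0.0108). DESeq2 gave no p-value for Lef1, so this call has no counterpart there. Lef1 in KO mice stood at 93.4, 10.001 and 7.78 CPM after PBS and 74.4, 24.5 and 19.97 CPM after BLM. Mice 136 and 141 had 93.4 and 74.4 CPM, nearer to WT PBS than to their group mates, and the KO groups overlapped. Tcf7, the other partner of beta-catenin in the list, measured 51.4, 58.5 and 49.8 CPM in WT PBS and 17.9, 17.1 and 18.6 CPM in WT BLM, which gave a log2 fold change of -1.58 ± 0.33 (adjusted p = 0.00962). Tcf7 in KO mice measured 42.7, 20.97 and 17.3 CPM after PBS and 38.3, 28.7 and 18.6 CPM after BLM. Here too the WT groups were apart and the KO groups overlapped.

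A 6-base core of the site that Lef1 and Tcf7 proteins bind, CTTTGA on either strand (TCAAAG on the other), was looked for in the RefSeq promoter windows of GRCm38.p6, which run from 250 bases before a transcript start to 50 after it. Windows were given for 35 of the 55 genes, and 6 of the 35 held the core: Lef1, Wnt11, Wnt5b, Fzd1, Frzb and Dkk1. That is 17.1%, and 18.2% of all 27025 genes with a window held it. The 250 bases before the start are shown for the 4 Wnt genes with the core that fell in WT skin and whose stretch lies outside annotated exons, with the core in capitals.
Lef1, chr3:131156044-131156293, plus strand, at an internal start 45823 bases past the first annotated one: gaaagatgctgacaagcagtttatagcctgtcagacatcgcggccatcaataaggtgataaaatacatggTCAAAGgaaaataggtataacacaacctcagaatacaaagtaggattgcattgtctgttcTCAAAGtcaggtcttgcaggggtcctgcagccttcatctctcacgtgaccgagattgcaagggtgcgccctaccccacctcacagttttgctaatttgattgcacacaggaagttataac
Wnt11, chr7:98834862-98835111, plus strand, at its first annotated start: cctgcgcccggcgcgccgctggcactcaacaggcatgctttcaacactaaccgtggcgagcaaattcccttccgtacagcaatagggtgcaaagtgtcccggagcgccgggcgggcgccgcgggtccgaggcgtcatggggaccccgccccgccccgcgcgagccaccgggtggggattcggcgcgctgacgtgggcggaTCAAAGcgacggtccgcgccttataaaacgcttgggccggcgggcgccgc
Wnt5b, chr6:119449387-119449636, minus strand, at an internal start 94961 bases past the first annotated one: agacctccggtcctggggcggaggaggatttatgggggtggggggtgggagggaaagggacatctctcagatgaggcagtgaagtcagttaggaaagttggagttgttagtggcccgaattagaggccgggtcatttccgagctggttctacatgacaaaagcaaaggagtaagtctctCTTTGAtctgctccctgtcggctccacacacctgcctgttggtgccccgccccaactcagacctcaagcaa
Fzd1, chr5:4758217-4758466, minus strand, at a start 181 bases before the first annotated one: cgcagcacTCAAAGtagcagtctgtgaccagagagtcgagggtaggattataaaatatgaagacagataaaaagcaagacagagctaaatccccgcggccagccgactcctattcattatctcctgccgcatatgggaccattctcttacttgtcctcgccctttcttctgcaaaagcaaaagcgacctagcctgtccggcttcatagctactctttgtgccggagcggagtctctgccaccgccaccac
Lef1 held the core at -180 and -120 on the opposite strand, Wnt11 at -50 and Fzd1 at -242 on the opposite strand, and Wnt5b at -71 on the strand shown, counted from the start to the first base of the match. The other 3 windows of Lef1, the other window of Wnt11 and the other 2 of Wnt5b held none. A match of 6 bases is a description of these letters and says nothing of binding in this skin.

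The feedback genes fell by less than Lef1. Axin2, a scaffold of the destruction complex and the most widely used read-out of canonical signalling, was at 82.6, 81.1 and 76.4 CPM in WT PBS and 68.6, 47.2 and 51.2 CPM in WT BLM, which gave a log2 fold change of -0.52 ± 0.17 (adjusted p = 0.0376). Axin2 in KO mice was at 62.6, 73.6 and 58.9 CPM after PBS and 68.99, 50.9 and 51.3 CPM after BLM. This was the smallest fall of the 30, and KO PBS mouse 137, the lowest of the 12 on the hair list, had 73.6 CPM. Nkd1, which binds Dishevelled and dampens the signal, was at 39.1, 44.2 and 33.4 CPM in WT PBS and 4.03, 15.3 and 11.5 CPM in WT BLM, which gave a log2 fold change of -1.92 ± 0.44 (adjusted p = 0.0127). Nkd1 in KO mice was at 25.8, 16.03 and 14.7 CPM after PBS and 28.1, 19.2 and 13.4 CPM after BLM. Nkd2, its close relative, was at 211, 184 and 173 CPM in WT PBS and 37.5, 47.7 and 35.4 CPM in WT BLM, which gave a log2 fold change of -2.24 ± 0.59 (adjusted p = 0.0195). Both Nkd genes were highest among KO mice in 136 and 141. Nkd2 in KO mice was at 161, 42.7 and 28.9 CPM after PBS and 134, 54.7 and 54.4 CPM after BLM. Znrf3, a membrane ubiquitin ligase that clears Frizzled from the cell surface, was at 49.8, 49.2 and 46.2 CPM in WT PBS and 25.4, 18.2 and 18.01 CPM in WT BLM, which gave a log2 fold change of -1.24 ± 0.31 (adjusted p = 0.0167). Znrf3 in KO mice was at 42.8, 23.2 and 19.8 CPM after PBS and 33.3, 19.2 and 18.5 CPM after BLM. Rnf43, a ligase of the same function, was at 52.1, 45.003 and 43.5 CPM in WT PBS and 28.2, 16.3 and 19.7 CPM in WT BLM, which gave a log2 fold change of -1.13 ± 0.25 (adjusted p = 0.0106). Rnf43 in KO mice was at 42.1, 28.9 and 26.3 CPM after PBS and 37.7, 27.01 and 25.1 CPM after BLM. In all 7 feedback and nuclear genes the 3 KO PBS mice lay below the 3 WT PBS mice, mouse 136 included, where 10.3% of all genes did so. None of the 7 passed between these groups by edgeR (smallest adjusted p = 0.205).

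Among the ligands, Wnt4 was the most abundant per length in WT PBS, at 24.6 ± 0.879 CPM per kilobase of exon (SD, n = 3), above Wnt11 at 15.6 ± 1.71, and Wnt11, Wnt5a, Wnt10b, Wnt10a and Wnt3 followed with each overlapping the next. In WT BLM the order was led by Wnt4, Wnt3 and Wnt10a at 19.7 ± 7.80, 11.3 ± 5.95 and 11.1 ± 3.95 CPM per kilobase, with overlapping ranges, and Wnt11 stood at 2.44 ± 0.227. Wnt11, a ligand mostly of the branches without beta-catenin (chr7:98835112-98855195, plus strand), had 72.2, 62.5 and 58.4 CPM in WT PBS and 11.002, 10.1 and 9.12 CPM in WT BLM, which gave a log2 fold change of -2.67 ± 0.69 (adjusted p = 0.0183). Wnt11 in KO mice had 67.98, 8.69 and 10.1 CPM after PBS and 44.05, 21.1 and 26.7 CPM after BLM. WT BLM mice and KO PBS mice 137 and 139 all had 8.69 to 11.002 CPM, and every KO BLM mouse had more. Wnt10b, a canonical ligand of the hair follicle (chr15:98770712-98778150, minus strand), had 56.4, 38.6 and 43.1 CPM in WT PBS and 6.03, 9.46 and 6.79 CPM in WT BLM, which gave a log2 fold change of -2.63 ± 0.39 (adjusted p = 0.00415). Wnt10b in KO mice had 25.1, 9.74 and 11.3 CPM after PBS and 27.8, 14.9 and 15.9 CPM after BLM. Its adjusted p was the smallest of the 53, and all KO mice of either treatment lay below WT PBS and above WT BLM. Wnt5a, the main ligand of the planar polarity branch, made by dermal cells, had 113, 115 and 117 CPM in WT PBS and 17.8, 30.8 and 27.8 CPM in WT BLM, which gave a log2 fold change of -2.18 ± 0.57 (adjusted p = 0.0191). Wnt5a in KO mice had 108, 25.03 and 20.7 CPM after PBS and 77.5, 39.1 and 42.3 CPM after BLM. As with Wnt11, mouse 136 lay near WT PBS and its group mates near WT BLM.

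Wnt5b, the relative of Wnt5a, had 10.6, 8.88 and 12.3 CPM in WT PBS and 6.38, 4.76 and 4.79 CPM in WT BLM, which gave a log2 fold change of -0.997 ± 0.21 (adjusted p = 0.00927). Wnt5b in KO mice had 8.21, 6.94 and 7.60 CPM after PBS and 8.78, 5.95 and 6.43 CPM after BLM. The WT groups did not overlap and the KO groups did. Wnt6, an epithelial ligand, had 11.1, 8.36 and 8.99 CPM in WT PBS and 2.94, 6.26 and 4.003 CPM in WT BLM, which gave a log2 fold change of -1.11 ± 0.28 (adjusted p = 0.0162). Wnt6 in KO mice had 9.37, 7.001 and 6.11 CPM after PBS and 8.29, 9.06 and 7.49 CPM after BLM, all above the WT BLM values except 1 PBS mouse. Wnt8a fell as well, but on 6 to 28 counts in the WT PBS libraries and 1 to 5 in WT BLM. Wnt16 rose, with 1.28, 1.94 and 2.24 CPM in WT PBS and 9.59, 4.76 and 6.005 CPM in WT BLM, which gave a log2 fold change of 1.89 ± 0.40 (adjusted p = 0.00978). Wnt16 in KO mice had 2.76, 6.31 and 6.85 CPM after PBS and 4.62, 4.90 and 7.21 CPM after BLM, so the KO PBS mice were already above WT PBS. Wnt9a also rose, with 11.4, 10.9 and 8.15 CPM in WT PBS and 18.9, 20.1 and 19.1 CPM in WT BLM, which gave a log2 fold change of 0.93 ± 0.28 (adjusted p = 0.0311). Wnt9a in KO mice had 12.4, 6.49 and 13.7 CPM after PBS and 10.3, 12.96 and 17.7 CPM after BLM, and these groups overlapped. Wnt4 in WT mice had 107, 100.5 and 102 CPM after PBS and 100.2, 44.9 and 103 CPM after BLM (adjusted p = 0.471), and in KO mice 105, 60.5 and 73.8 CPM after PBS and 82.9, 118 and 169 CPM after BLM. Wnt3, a canonical epidermal ligand, had 35.9, 41.7 and 34.7 CPM in WT PBS and 52.7, 16.1 and 35.7 CPM in WT BLM (adjusted p = 0.820). Wnt3 in KO mice had 40.6, 34.8 and 30.9 CPM after PBS and 32.5, 36.01 and 39.2 CPM after BLM. For both Wnt3 and Wnt4, mouse 146, the WT BLM mouse highest on the hair list, was the lowest of the 12 mice. The other 7 tested ligands (Wnt2, Wnt2b, Wnt3a, Wnt7a, Wnt7b, Wnt9b and Wnt10a) had log2 fold changes of -0.74 for Wnt3a to 1.24 for Wnt7a and did not pass.

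Of the receptors, Fzd1 was the most abundant per length in WT PBS, at 48.3 ± 1.26 CPM per kilobase, and Fzd10, Fzd7 and Fzd6 followed with overlapping neighbours. Fzd5, a Frizzled that can couple to beta-catenin (chr1:64730558-64737751, minus strand), fell most and had 84.9, 96.7 and 90.8 CPM in WT PBS and 10.96, 14.2 and 12.7 CPM in WT BLM, which gave a log2 fold change of -2.85 ± 0.74 (adjusted p = 0.0188). As for Lef1, DESeq2 gave no p-value for Fzd5 in any comparison, and its edgeR call was lost without any 1 of the 3 WT BLM mice. Fzd5 in KO mice had 117, 13.3 and 20.2 CPM after PBS and 60.1, 21.6 and 22.1 CPM after BLM. Mouse 136 was the highest of all 12 mice for this receptor and its 2 group mates lay at 13.3 and 20.2 CPM. Fzd3, a Frizzled of planar polarity, had 31.4, 31.7 and 37.4 CPM in WT PBS and 10.8, 14.4 and 8.79 CPM in WT BLM, which gave a log2 fold change of -1.56 ± 0.31 (adjusted p = 0.00774). Fzd3 in KO mice had 35.3, 21.6 and 25.95 CPM after PBS and 23.6, 12.1 and 11.1 CPM after BLM. KO BLM mice 143 and 144 were at WT BLM levels, and KO PBS mice 137 and 139 were between the WT groups. Fzd1 had 199, 199 and 209 CPM in WT PBS and 47.1, 91.3 and 83.2 CPM in WT BLM, which gave a log2 fold change of -1.45 ± 0.34 (adjusted p = 0.0138). Fzd1 in KO mice had 222, 85.8 and 125 CPM after PBS and 148, 101 and 97.1 CPM after BLM. Fzd10 had 95.9, 90.4 and 101 CPM in WT PBS and 50.9, 24.7 and 38.1 CPM in WT BLM, which gave a log2 fold change of -1.34 ± 0.36 (adjusted p = 0.0202). The KO BLM values of both Fzd1 and Fzd10 all exceeded the WT BLM values. Fzd10 in KO mice had 80.5, 36.4 and 30.5 CPM after PBS and 75.2, 57.7 and 55.5 CPM after BLM. Fzd7, a canonical Frizzled, had 123, 111 and 128 CPM in WT PBS and 69.8, 68.96 and 60.01 CPM in WT BLM, which gave a log2 fold change of -0.86 ± 0.18 (adjusted p = 0.00962). The fall in Fzd7 was past the threshold without any 1 mouse, which was not so of Fzd2, Fzd6, Fzd10, Lrp6 and Fzd5.

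Fzd7 in KO mice had 112, 86.04 and 122 CPM after PBS and 97.98, 65.7 and 64.9 CPM after BLM. Fzd2 had 64.9, 59.8 and 67.7 CPM in WT PBS and 24.7, 47.2 and 37.8 CPM in WT BLM, which gave a log2 fold change of -0.81 ± 0.23 (adjusted p = 0.0254). Fzd2 in KO mice had 67.3, 45.7 and 65.9 CPM after PBS and 57.6, 49.6 and 42.6 CPM after BLM, with all KO groups overlapping. Lrp6, the co-receptor most needed for canonical signalling, had 146, 173 and 182 CPM in WT PBS and 103, 112 and 81.8 CPM in WT BLM, which gave a log2 fold change of -0.75 ± 0.24 (adjusted p = 0.0366). Lrp6 in KO mice had 177, 114 and 146 CPM after PBS and 127, 77.9 and 69.8 CPM after BLM. Its partner Lrp5 had 133, 132 and 131 CPM in WT PBS and 139.8, 113 and 127 CPM in WT BLM and did not pass (adjusted p = 0.658). Fzd6, the hair-patterning Frizzled, fell by a log2 fold change of -0.75 ± 0.21 (adjusted p = 0.0254). Fzd9 was the receptor that rose (chr5:135248938-135251230, minus strand), with 1.69, 1.18 and 0.662 CPM in WT PBS and 7.32, 5.93 and 5.05 CPM in WT BLM, which gave a log2 fold change of 2.38 ± 0.50 (adjusted p = 0.00962). Fzd9 in KO mice had 0.997, 4.60 and 3.31 CPM after PBS and 2.36, 2.17 and 2.47 CPM after BLM. The KO BLM mice lay within a narrow 2.17 to 2.47 CPM, above every WT PBS mouse and below every WT BLM mouse. Fzd4 and Fzd8 did not pass, with log2 fold changes of 0.37 for Fzd4 and 0.10 for Fzd8.

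R-spondins are secreted proteins that bind Lgr4, Lgr5 or Lgr6 and draw Znrf3 and Rnf43 off the membrane, which leaves more Frizzled in place. Rspo2 (chr15:43020794-43170826, minus strand) fell most among them, with 3.11, 2.96 and 3.52 CPM in WT PBS and 0.117, 0.783 and 0.131 CPM in WT BLM, which gave a log2 fold change of -3.18 ± 0.65 (adjusted p = 0.00845). Rspo2 in KO mice had 0.565, 0.457 and 0.268 CPM after PBS and 1.78, 1.46 and 0.672 CPM after BLM. All 3 KO PBS mice, mouse 136 included, lay within the WT BLM range, and all 3 KO BLM mice lay above them. Rspo1 had 11.97, 10.8 and 10.1 CPM in WT PBS and 0.900, 4.73 and 2.40 CPM in WT BLM, which gave a log2 fold change of -2.03 ± 0.52 (adjusted p = 0.0179). Rspo1 in KO mice had 10.3, 18.3 and 17.5 CPM after PBS and 8.42, 10.3 and 4.06 CPM after BLM. KO PBS mice 137 and 139, both low on the hair list, had more Rspo1 than any WT PBS mouse. Rspo3, made by dermal and vascular cells, had 4.19, 4.44 and 6.34 CPM in WT PBS and 1.21, 2.18 and 1.54 CPM in WT BLM, which gave a log2 fold change of -1.60 ± 0.36 (adjusted p = 0.0119). Rspo3 in KO mice had 2.99, 7.77 and 4.77 CPM after PBS and 4.10, 5.43 and 4.21 CPM after BLM. Every KO mouse had more Rspo3 than every WT BLM mouse. Lgr5, the marker of hair follicle stem cells, had 47.2, 43.8 and 53.7 CPM in WT PBS and 7.09, 23.8 and 12.2 CPM in WT BLM, which gave a log2 fold change of -1.75 ± 0.44 (adjusted p = 0.0164). Lgr5 in KO mice had 53.4, 32.9 and 74.2 CPM after PBS and 38.1, 30.3 and 18.9 CPM after BLM. Mouse 139, with a hair list value of 1.68, held the highest Lgr5 of the 12. Lgr4, the most abundant of the class per length in WT PBS at 18.3 ± 1.68 CPM per kilobase, had 98.3, 107 and 118 CPM in WT PBS and 39.7, 49.7 and 32.1 CPM in WT BLM, which gave a log2 fold change of -1.41 ± 0.33 (adjusted p = 0.0135). Lgr4 in KO mice had 143, 64.4 and 101 CPM after PBS and 83.96, 44.5 and 39.7 CPM after BLM. The WT groups were apart, and the KO groups overlapped. Lgr6, which marks stem cells of the upper follicle, had 36.5, 34.97 and 43.4 CPM in WT PBS and 36.9, 34.8 and 33.1 CPM in WT BLM (adjusted p = 0.774). Lgr6 in KO mice had 30.7, 100.4 and 68.1 CPM after PBS and 43.2, 41.5 and 29.4 CPM after BLM, with mice 137 and 139 above all others. Rspo4, the R-spondin of the nail, did not pass although its WT groups did not overlap (adjusted p = 0.0638).

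The secreted antagonists moved in both directions. Notum, an esterase that strips the lipid from Wnt proteins (chr11:120653788-120661175, minus strand), had 13.7, 11.6 and 10.5 CPM in WT PBS and 0.587, 3.85 and 2.03 CPM in WT BLM, which gave a log2 fold change of -2.46 ± 0.51 (adjusted p = 0.00929). Notum in KO mice had 11.4, 16.7 and 17.1 CPM after PBS and 9.67, 6.08 and 5.55 CPM after BLM. As for Rspo1, the 2 KO PBS mice lowest on the hair list had the most, and the 3 KO BLM mice lay below all KO PBS mice and above all WT BLM mice. Sfrp1, which binds Wnt proteins outside the cell and was the most abundant antagonist per length in WT PBS at 45.7 ± 5.45 CPM per kilobase, had 181, 192 and 227 CPM in WT PBS and 41.03, 43.7 and 27.3 CPM in WT BLM, which gave a log2 fold change of -2.42 ± 0.49 (adjusted p = 0.00834). Sfrp1 in KO mice had 174, 88.7 and 102 CPM after PBS and 154, 42.6 and 43.4 CPM after BLM. KO BLM mice 143 and 144 were at WT BLM levels and mouse 141 was not. Wif1, another secreted Wnt-binding protein, had 36.4, 41.1 and 40.8 CPM in WT PBS and 9.36, 11.999 and 11.7 CPM in WT BLM, which gave a log2 fold change of -1.84 ± 0.44 (adjusted p = 0.0137). Wif1 in KO mice had 26.1, 15.5 and 7.24 CPM after PBS and 40.4, 20.9 and 16.1 CPM after BLM. The WT groups were apart and the KO groups overlapped. Dkk4, a target and a blocker of Lrp6, had 15, 10 and 21 counts in WT PBS, 0, 1 and 0 in WT BLM, 0, 0 and 0 in KO PBS and 6, 0 and 0 in KO BLM. It passed the test in WT skin (adjusted p = 0.0213) but had at most 21 counts in a library, so no fold is given. Dkk1, the best known Lrp blocker, had 0, 0 and 1 counts in WT PBS, 0, 1 and 5 in WT BLM, 0, 1 and 3 in KO PBS and 18, 12 and 3 in KO BLM and was not tested.

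Frzb, also known as secreted frizzled-related protein 3 (chr2:80411970-80447625, minus strand), was the antagonist that rose, with 2.20, 2.40 and 2.62 CPM in WT PBS and 7.71, 8.31 and 4.30 CPM in WT BLM, which gave a log2 fold change of 1.49 ± 0.30 (adjusted p = 0.00789). Frzb in KO mice had 2.79, 3.60 and 3.46 CPM after PBS and 4.87, 3.63 and 2.65 CPM after BLM. All WT BLM mice exceeded all WT PBS mice, and the KO groups overlapped. Sfrp2 and Sfrp4, dermal fibroblast genes of the same family, varied widely within groups. Sfrp2 had 5.48, 7.80 and 12.02 CPM in WT PBS and 5.76, 19.7 and 29.2 CPM in WT BLM (adjusted p = 0.376). Sfrp2 in KO mice had 0.931, 7.46 and 20.6 CPM after PBS and 4.04, 15.8 and 27.3 CPM after BLM. Mice 136 and 141 had the lowest Sfrp2 of the 12. Sfrp4 had 9.94, 12.1 and 25.6 CPM in WT PBS and 2.98, 31.4 and 2.59 CPM in WT BLM (adjusted p = 0.794). Sfrp4 in KO mice had 3.52, 18.2 and 22.6 CPM after PBS and 4.90, 1.27 and 1.34 CPM after BLM. Mouse 146 stood far above its 2 group mates for Sfrp4. Dkk3, a divergent Dkk that is not an established Lrp blocker, had 61.4, 54.5 and 57.8 CPM in WT PBS and 30.9, 100.1 and 76.3 CPM in WT BLM (adjusted p = 0.603). Dkk3 in KO mice had 60.96, 51.3 and 95.05 CPM after PBS and 59.01, 84.97 and 67.6 CPM after BLM, and no pair of groups was apart. Dkk2 and Sfrp5 did not pass in WT skin, at 0.74 for Dkk2 and 1.30 for Sfrp5 on the log2 scale.

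**Figure D2:**
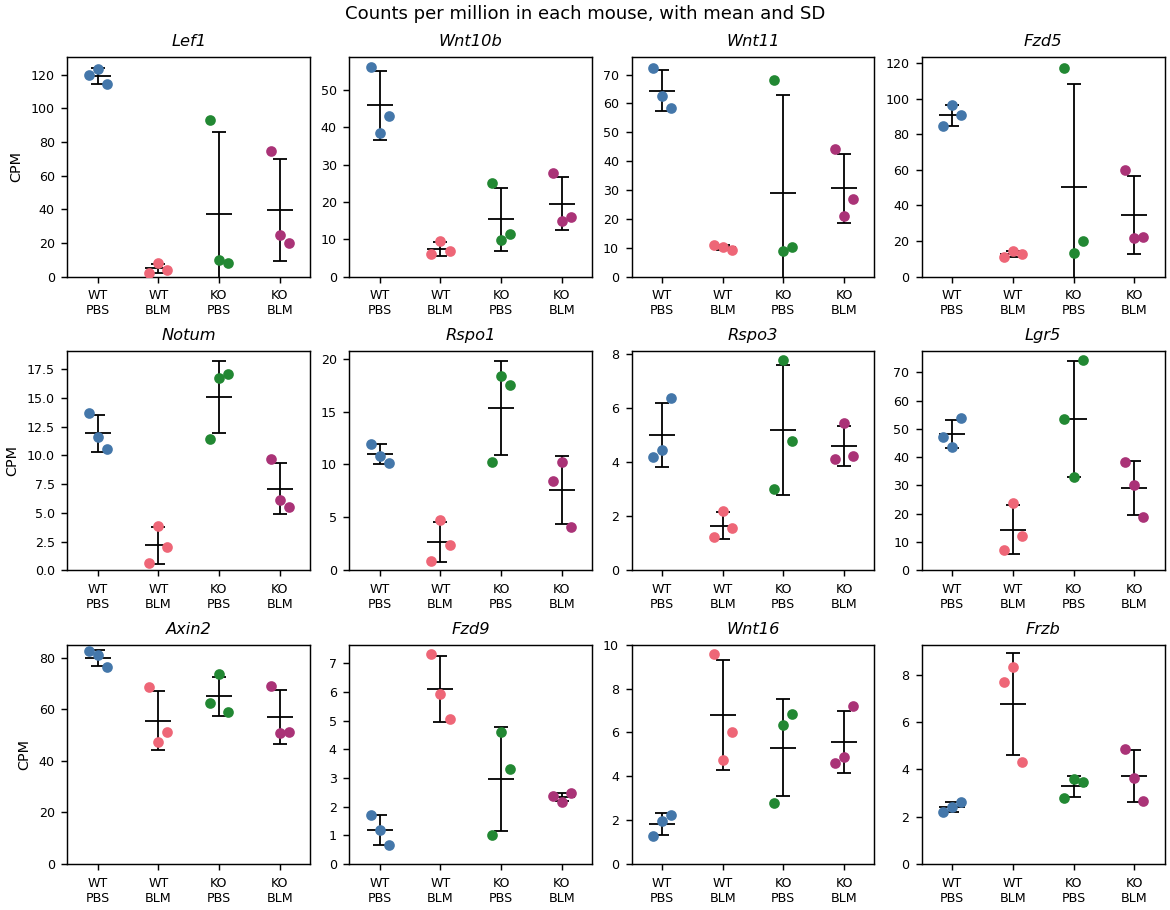
CPM of 12 Wnt genes (vertical axes from 0) in each mouse, by group, with the mean and SD of the 3 mice as black bars; SD bars of Lef1 and Wnt11 in KO PBS run below 0 and end at the axis. WT PBS and WT BLM do not overlap for any of the 12 genes, while the KO PBS points of Lef1, Wnt11 and Fzd5 split into mouse 136 above and the other 2 below, and for Notum and Rspo1 mouse 136 lies below the other 2.

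A list of 70 further pathway genes held 68 that could be tested, and 25 of them fell and 5 rose in WT BLM against WT PBS (36.8% and 7.35%), against 14.1% lower and 19.8% higher of all genes tested. The falls included 7 of 14 noncanonical and planar polarity genes and 9 of 14 reported target genes, 3 of 17 genes of signal transduction, 4 of 10 nuclear genes, 2 of 11 surface regulators and neither of the 2 secretion genes. The shares lower among signal transduction genes (17.6%) and surface regulators (18.2%) were thus near that of all genes. The 3 that fell most among those averaging at least 1 CPM were Msx2, Hoxc13 and Bambi. Msx2, a homeobox factor of the hair matrix, went from 193 to 5.34 CPM on average, which gave a log2 fold change of -5.17 ± 1.14 (adjusted p = 0.0110). Hoxc13, the homeobox regulator of hair keratins, went from 184 to 6.96 CPM, which gave a log2 fold change of -4.72 ± 1.003 (adjusted p = 0.00978). Bambi, a decoy receptor of the TGF-beta family, went from 105 to 4.38 CPM, which gave a log2 fold change of -4.58 ± 1.14 (adjusted p = 0.0161). Both homeobox genes are known from growing hair as well as from the Wnt pathway. The 3 that rose most were Celsr3, Twist2 and Tspan12. Celsr3, a planar polarity cadherin, went from 0.669 to 3.11 CPM, which gave a log2 fold change of 2.21 ± 0.32 (adjusted p = 0.00405). Twist2, a dermal transcription factor, went from 4.78 to 13.97 CPM, which gave a log2 fold change of 1.55 ± 0.51 (adjusted p = 0.0416). Tspan12, a helper of Fzd4 signalling, went from 4.45 to 10.5 CPM, which gave a log2 fold change of 1.23 ± 0.39 (adjusted p = 0.0347). Ctnnb1, which encodes beta-catenin itself, went from 993 to 505 CPM, a log2 fold change of -0.98 ± 0.22 (adjusted p = 0.0126). The reported target genes did not fall alike. In WT PBS and WT BLM, mean Dlx3 was 623 and 38.8 CPM and mean Shh was 14.4 and 0.993 CPM. Mean Myc was 73.8 and 57.02 CPM, mean Ccnd1 257 and 194 CPM, and mean Tnfrsf19 142 and 99.1 CPM. Mean Cd44 was higher after bleomycin, at 254 and 322 CPM. None of the 68 passed by edgeR in the other comparisons, in which 16 (BLM against PBS in KO), 12 (KO against WT after PBS), 15 (KO against WT after BLM) and 28 (the difference between the responses) had an unadjusted p under 0.05, where 3665, 3727, 3043 and 5687 of all 18311 genes did. Without mice 136 and 141, 10 of the 68 rose and 8 fell between KO BLM and KO PBS (13.5% and 8.73% of all genes). In KO PBS against WT PBS, 4 were then higher and 31 lower (19.6% and 21.4% of all genes), and in KO BLM against WT BLM 6 were called, all higher (2.52% of all genes higher and 1.84% lower). For the difference between the responses, 28 were then higher and 4 lower (19.7% and 18.9% of all genes).

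The WT result depended on individual mice and on the hair list. Leaving out 1 mouse at a time left 18 to 35 of the Wnt genes past the threshold, with 18 (3 higher and 15 lower) when WT BLM mouse 147 was left out, where 13.2% of all genes were called higher and 4.46% lower. The 14 named genes that lost the threshold without mouse 147 were Wnt5a, Wnt6, Wnt9a, Wnt11, Fzd2, Fzd5, Fzd6, Fzd10, Lrp6, Rspo1, Lgr5, Axin2, Nkd2 and Znrf3. Of these, Lrp6 and Wnt9a lost it without any 1 of the 6 WT mice, and Axin2 without any 1 of 5 of them. With the hair list mean of each mouse as a covariate, none passed by edgeR, 12 had an unadjusted p under 0.05, and the median log2 fold change was -0.43, where 0.0382% of all genes were called higher and 0.0164% lower. The part of the hair list in these falls was not tested further, since within WT skin it separates the groups as the treatment does.

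In KO skin the question was whether bleomycin moved the same genes when Thy-1 was absent. None of the 53 passed between KO BLM and KO PBS by edgeR, 10 had an unadjusted p under 0.05, as did 3665 of all 18311 genes, and edgeR called 0.251% of all genes higher and 0.0546% lower. DESeq2 called none of the Wnt genes either, where it called 3.39% of all genes higher and 2.56% lower. The smallest adjusted p was 0.169, for Fzd4, with 70.1, 133 and 115 CPM after PBS and 75.4, 46.4 and 48.8 CPM after BLM and a log2 fold change of -0.90 ± 0.31 (adjusted p = 0.169). Only 3 genes had KO groups that did not overlap, where 10.8% of all genes were higher and 8.44% lower without overlap: Rspo2 was higher and Notum and Rspo1 were lower after bleomycin. Rspo1 in KO skin had a log2 fold change of -1.02 ± 0.50 (adjusted p = 0.280). Notum in KO skin had a log2 fold change of -1.09 ± 0.49 (adjusted p = 0.247). Rspo2 in KO skin had a log2 fold change of 1.60 ± 0.62 (adjusted p = 0.197). Without mice 136 and 141, Rspo1 had -1.32 ± 0.59 (adjusted p = 0.133), Notum had -1.54 ± 0.55 (adjusted p = 0.0728) and Rspo2 had 1.55 ± 0.75 (adjusted p = 0.160).

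Without mice 136 and 141, which leaves 2 KO mice per treatment, 2 ligands rose and 9 other genes fell between KO BLM and KO PBS, where 13.5% of all genes were higher and 8.73% lower. Wnt11 rose by 1.34 ± 0.17 (adjusted p = 0.00496) on the log2 scale. Wnt5a rose by 0.83 ± 0.22 (adjusted p = 0.0306). Mice 136 and 141 had the most Wnt11 and Wnt5a of their groups. With all KO mice, mean Wnt11 was 28.9 CPM after PBS and 30.6 CPM after BLM. The p-values of this fit therefore do not measure the spread of all KO mice. Those 2 ligands, of the branches without beta-catenin, thus stood higher in the remaining bleomycin mice, as did the hair list, at 4.34 and 5.60 against -1.40 and 1.68. The genes that fell were the antagonists Sfrp4, Dkk2 and Sfrp1, the receptors Fzd4, Fzd3, Lrp6 and Fzd7, and Lgr6 and Lgr4. Sfrp4 fell most, at -3.96 ± 1.20 (adjusted p = 0.0452). Dkk2 had a log2 fold change of -1.55 ± 0.40 (adjusted p = 0.0286). Lgr6 had a log2 fold change of -1.25 ± 0.21 (adjusted p = 0.00992). Sfrp1, Fzd3, Lrp6, Fzd7 and Lgr4 had also fallen in WT skin, and Sfrp4, Dkk2, Fzd4 and Lgr6 had not. With all 12 mice and the hair list as a covariate, Lgr4, Fzd3, Lrp6 and Fzd5 passed, all lower after bleomycin, where 6.45% of all genes were higher and 2.72% lower. Other tissue differed as well: the summed adipocyte markers were 2358, 5444 and 6672 CPM in KO PBS and 3017, 1670 and 1324 CPM in KO BLM, and their part in the Wnt values was not tested.

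**Figure D3:**
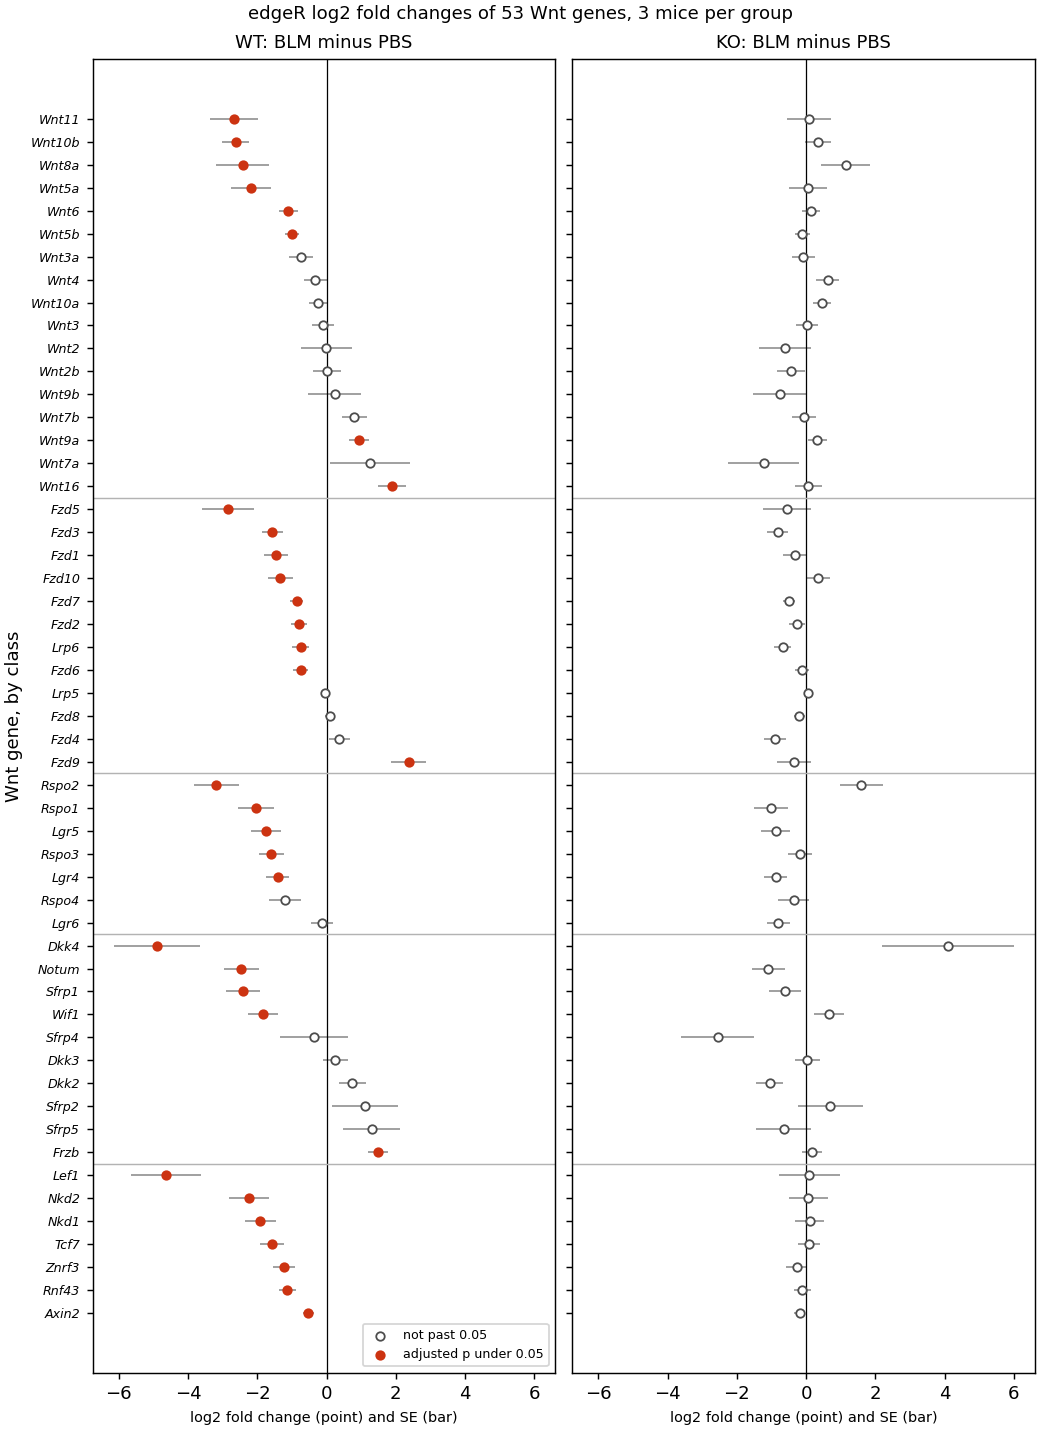
Log2 fold changes (points) with SE (bars) of the 53 Wnt genes, by class, for BLM minus PBS in WT mice (left) and KO mice (right), 3 mice per group. In WT mice 30 genes lie left of 0 and 4 right of 0 past an adjusted p of 0.05 (filled), and in KO mice no point is filled.

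Between the genotypes given PBS, none of the 53 passed by edgeR (15 at an unadjusted p under 0.05, as were 3727 of all 18311 genes), where 0.0382% of all genes were called higher and 0.0273% lower. DESeq2 called 5: Dkk4, Rspo2 and Wnt10b lower in KO PBS, and Wnt16 and Dkk2 higher, where it called 1.41% of all genes lower and 2.28% higher. In 16 genes all 3 KO PBS mice lay below all 3 WT PBS mice and in 3 all lay above, where 10.3% and 8.62% of all genes did so. The 16 were the 7 feedback and nuclear genes, Wnt3a, Wnt5a, Wnt5b, Wnt10b, Fzd10, Rspo2, Dkk4, Sfrp1 and Wif1, and the 3 were Wnt16, Dkk2 and Frzb. Dkk2, a modulator of Lrp6, had 5.55, 7.86 and 6.60 CPM in WT PBS and 13.4, 19.1 and 32.3 CPM after PBS and 13.7, 11.4 and 6.26 CPM after BLM in KO mice, a log2 fold change between the PBS groups of 1.696 ± 0.39 (adjusted p = 0.194). Rspo2 differed between the PBS groups by -2.89 ± 0.63 (adjusted p = 0.194) on the log2 scale. Wnt10b differed between them by -1.58 ± 0.38 (adjusted p = 0.194). Mouse 136 lay near its group mates for Rspo2, at 0.565 CPM, and between them and the WT PBS mice for Dkk2, at 13.4 CPM, and for Wnt10b, at 25.1 CPM. Without mice 136 and 141, 18 Wnt genes were lower and 7 higher in KO PBS than in WT PBS, where 21.4% of all genes were lower and 19.6% higher. Mouse 136 differed from mice 137 and 139 on other lists too: the summed levels of its skeletal muscle genes were 8160.01 CPM against 33857 and 28869.7, of its macrophage genes 360.4 against 1681 and 1248, and of its fibroblast genes 5734 against 18680.2 and 15098 CPM, and their part in the Wnt values was not tested. In the edgeR fit without mice 136 and 141, Lef1 had a log2 fold change of -3.75 ± 0.44 (adjusted p = 4.72e-04). Wnt11 then had -2.78 ± 0.17 (adjusted p = 4.58e-05). Fzd5 then had -2.44 ± 0.19 (adjusted p = 9.55e-05). Mouse 136 was left out for its hair list value and had 93.4 CPM of Lef1, where its group mates had 10.001 and 7.78. These p-values therefore do not measure the spread of the 3 KO PBS mice. Mice 137 and 139 had hair list values of -1.40 and 1.68, against 8.95 to 9.81 in WT PBS. With the hair list as a covariate edgeR called none of the 53, and 12 of all 18311 genes. The median log2 fold change of the 53 was then 0.006.

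The 30 Wnt genes that fell in WT skin were also set beside the hair list in the KO mice. In 23 of the 30 (76.7%), mouse 136 lay beyond both its group mates toward WT PBS, against 90.8% of all genes that fell, and in 27 (90.0%) mouse 141 did, against 85.6%. The 7 in which mouse 136 did not were Fzd7, Rspo1, Rspo3, Lgr5, Axin2, Notum and Dkk4, and for Dkk4 it could not, since all 3 KO PBS mice had 0 counts. In the 2 remaining KO PBS mice, 22 of the 30 lay below the WT PBS range in both mice, 5 in 1 mouse and 3 in neither. These 3 were Notum, Rspo1 and Rspo3. The same count was not made for the other genes that fell, so it cannot be called particular to the Wnt genes. The 30 were also picked for WT PBS values above WT BLM, which favours KO PBS values below the WT PBS range. Notum in mice 137 and 139 was 16.7 and 17.1 CPM and Rspo1 was 18.3 and 17.5 CPM, with hair list values of -1.40 and 1.68, while WT BLM mice with hair list values of -0.80 to 2.91 had 0.587 to 3.85 CPM of Notum and 0.900 to 4.73 CPM of Rspo1. No test was made of this difference in pattern, which was seen in these values. KO PBS and WT BLM mice differ in both genotype and treatment, and what sets their Notum and Rspo1 values apart was not tested.

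**Figure D4:**
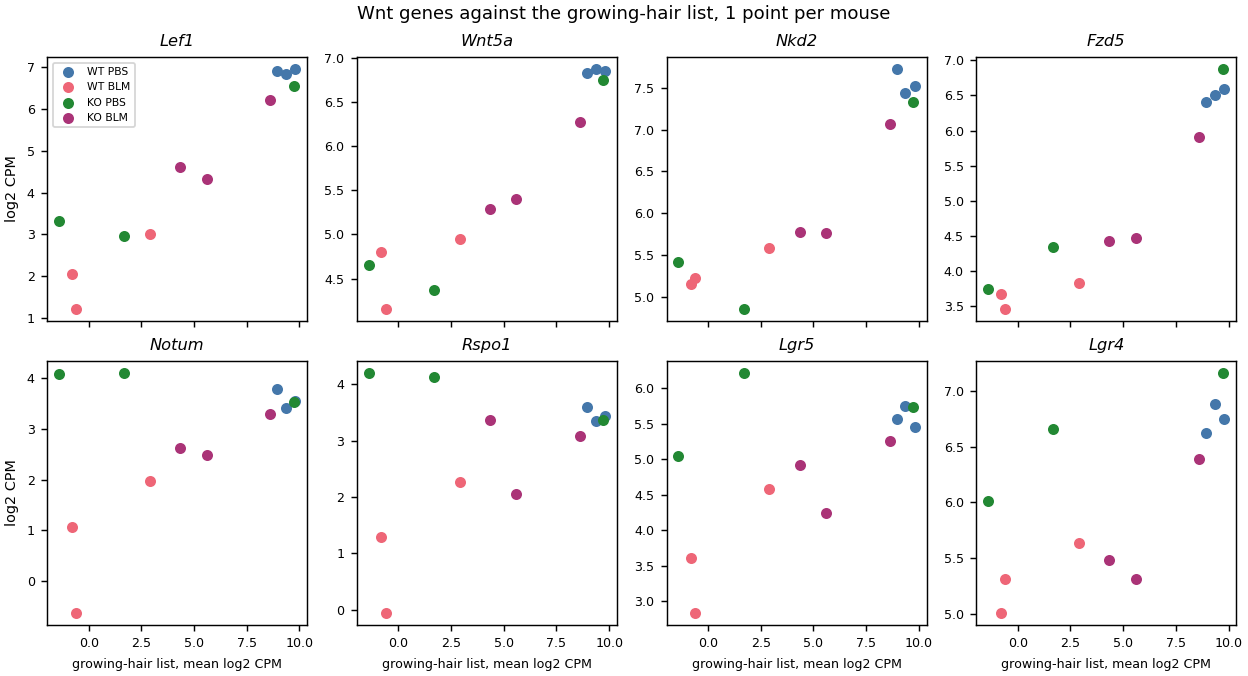
Log2 CPM of 8 Wnt genes against the mean log2 CPM of the growing-hair list, 1 point per mouse, coloured by group. For Lef1, Wnt5a, Nkd2 and Fzd5 (top) the KO PBS mice at hair list values of -1.40 and 1.68 lie near the WT BLM mice, and for Notum, Rspo1, Lgr5 and Lgr4 (bottom) they lie above them.

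Between the genotypes given bleomycin, none of the 53 passed by edgeR (16 at an unadjusted p under 0.05, as were 3043 of all 18311 genes), where 0.0546% of all genes were called higher and 0.0382% lower. DESeq2 called 4, all higher in KO BLM: Wnt6, Wnt10b, Rspo3 and Notum, where it called 1.53% of all genes higher and 1.46% lower. In 14 genes all 3 KO BLM mice lay above all 3 WT BLM mice and in 2, Wnt9a and Fzd9, all lay below, where 14.6% and 12.9% of all genes did so. The 14 were the ligands Wnt5a, Wnt6, Wnt8a, Wnt10b and Wnt11, the receptors Fzd1, Fzd5, Fzd6 and Fzd10, and Rspo3, Notum, Wif1, Lef1 and Nkd2. Notum differed between the BLM groups by 1.71 ± 0.50 (adjusted p = 0.233) on the log2 scale. Rspo3 differed between them by 1.47 ± 0.36 (adjusted p = 0.198). Wnt10b differed by 1.40 ± 0.38 (adjusted p = 0.212). The hair list was higher in each KO BLM mouse, at 4.34 to 8.61, than in each WT BLM mouse, at -0.80 to 2.91. Its part in these values was not tested beyond the covariate fit, in which no Wnt gene passed by edgeR (10 at an unadjusted p under 0.05). That fit called 24 of all 18311 genes. Without mice 136 and 141, 5 genes passed, all higher in KO BLM, where 2.52% of all genes were higher and 1.84% lower. Lef1 was the largest of them, at 2.21 ± 0.38 (adjusted p = 0.0279). Rspo3 then had 1.54 ± 0.32 (adjusted p = 0.0410). The other 3 were Wnt11, Wnt10b and Fzd5, at 1.25, 1.06 and 0.79 on the log2 scale. Mouse 136 is in neither group of this comparison, but the groups share their estimate of the spread. With only mouse 136 left out, 6 Wnt genes were called higher and 1 lower, where 1292 of all 18739 genes were called. With only mouse 141 left out none was, where 8 of all 18783 genes were called. These p-values therefore do not measure the spread of all KO mice.

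Whether bleomycin acted differently in the genotypes was tested as the difference between the responses, KO minus WT. None of the 53 passed by edgeR, nor did any of the 18311 genes (0.0% higher and 0.0% lower), and 25 of the 53 had an unadjusted p under 0.05, as did 5687 of all 18311 genes, and the smallest adjusted p, for Rspo2, Wnt10b and Wif1, was 0.0702. Rspo2 had a difference of 4.78 ± 0.90 (adjusted p = 0.0702) on the log2 scale. Wnt10b had a difference of 2.98 ± 0.54 (adjusted p = 0.0702). Fzd9, higher after bleomycin in WT skin, had a difference of -2.72 ± 0.69 (adjusted p = 0.0712). DESeq2 called 20 of the Wnt genes, 15 with a higher and 5 with a lower response in KO skin, where it called 7.65% of all genes higher and 10.2% lower. Without mice 136 and 141 edgeR called 25, of which 19 were higher and 6 lower, where 19.7% of all genes were higher and 18.9% lower. Lef1 then had the largest difference among them, at 5.95 ± 0.57 (adjusted p = 2.71e-04). Mice 136 and 141 were the KO mice highest for Lef1, at 93.4 and 74.4 CPM, so this p-value does not measure the spread of all KO mice. KO PBS mice 137 and 139 had hair list values of -1.40 and 1.68, and KO BLM mice 143 and 144 had 4.34 and 5.60. With the hair list as a covariate edgeR called none of the 53 and none of all 18311 genes. The median difference of the 53 was 0.21 there and 0.71 in the main fit. With only mouse 136 left out 28 were called, 21 higher and 7 lower, where 20.4% of all genes were higher and 19.5% lower. With only mouse 141 left out edgeR called none (23 at an unadjusted p under 0.05), where it called 1 of all 18783 genes. The count of genes called for a difference in response in edgeR therefore depended on KO PBS mouse 136, whose hair list value was within the WT PBS range.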

How the data were processed

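Total RNA of the skin of 12 mice was sequenced from stranded mRNA libraries, and the authors deposited 1 table of raw read counts per gene symbol. MultiQC 1.7 and the build GRCm38.p6 are named in the submitters' processing notes, and the aligner and counter are not given in the sources used here. Symbols were the only identifiers, so positions and exon lengths were taken from GENCODE M21 on GRCm38 by symbol. Mice were grouped by their GEO labels. The Wnt genes, the other gene lists and the tests were chosen with earlier results of these data known.

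Counts were fitted as deposited in edgeR 4.0.16 (R 4.3.3): filterByExpr with a minimum count of 10 and a total of 15, TMM scaling, a model of 4 group means over all 12 mice, and the quasi-likelihood test, with Benjamini-Hochberg adjustment over all 18311 genes and a threshold of 0.05. SE is the log2 fold change divided by the root of the F statistic. The common biological coefficient of variation was 34.9%. The 5 contrasts were BLM against PBS in each genotype, KO against WT in each treatment, and the difference between the responses. The main alternatives were DESeq2 1.42.0, the tool the authors used, RLE and upper-quartile scaling, other filters, fits of only the groups compared, the growing-hair list as a covariate, and leaving out each mouse or both mice 136 and 141.

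CPM is counts per 1000000 of the scaled library. Values in all mice are given for called Wnt genes that averaged 1 CPM or more, up to 30 by size of change, and for a fixed list of well known skin members. The scripts were tested on simulated data. Depth limits Dkk1, Dkk4, Wnt8a and Rspo4os most, and each count carries counting error. Rspo4os lies antisense to Rspo4, and whether strand was used in counting is not given in the sources used here.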

Additional observations from a re-analysis of the deposited data

Results flagged for a closer look

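The Rspo2 groups lay in opposite order in the genotypes: all 3 WT BLM mice lay below all 3 WT PBS mice, and all 3 KO BLM mice lay above all 3 KO PBS mice. The change in KO skin, 1.60 on the log2 scale, did not pass by edgeR. The nearest KO values were 0.565 CPM (17 counts) in PBS mouse 136 and 0.672 CPM (19 counts) in BLM mouse 144. The difference between the responses was 4.78 ± 0.90 on the log2 scale (edgeR, adjusted p = 0.0702), which did not pass, and it rests on values from 0.117 to 3.52 CPM. DESeq2 called this difference, where it called 7.65% of all genes higher. So did edgeR without mice 136 and 141, at a difference of 4.73, where 19.7% of all genes were called higher. None of the other 52 tested Wnt genes showed this split, and the share of all genes that did is not given here.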

How the results depend on the processing

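The count of Wnt genes called between WT BLM and WT PBS was 34 and stayed at 32 to 36 under DESeq2 (33), RLE or upper-quartile scaling, both other filters, the model of 2 groups and without mice 136 and 141. It was 0 with the hair list as a covariate (12 at an unadjusted p under 0.05 in edgeR) and 18 to 35 when 1 mouse was left out, with 18 without WT BLM mouse 147. Of the 32 named genes that passed, all kept their direction under every setting run, DESeq2 gave no p-value for Lef1 and Fzd5 and called the other 30, all 32 lost the threshold with the covariate, and 18 to 32 kept it with 1 mouse left out.

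From 0 in edgeR, the count for KO BLM against KO PBS became 4 with the hair covariate, 11 without mice 136 and 141, and 0 to 7 with 1 mouse left out (7 without 136, 5 without 141). Of all genes, 1679 of 18311 were called with the covariate and 4164 of 18688 without both mice. Without 136 it was 2632 of 18739 and without 141 it was 1162 of 18783. For KO PBS against WT PBS the Wnt count became 5 in DESeq2, 25 without both mice, and 0 to 22 with 1 left out (22 without 136). Of all genes, those fits called 746 of 20198, 7648 of 18688 and, without 136, 6870 of 18739. For KO BLM against WT BLM the Wnt count became 4 in DESeq2, 5 without both, and 0 to 7 (7 without 136). Of all genes, those fits called 585 of 19547, 815 of 18688 and, without 136, 1292 of 18739. For the difference between the responses the Wnt count became 20 in DESeq2, 25 without both, and 0 to 28 (28 without 136, and 1 without WT BLM mouse 146). Of all genes, 3253 of 18245 were called in DESeq2 and 7218 of 18688 without both. Without 136 it was 7470 of 18739 and without 146 it was 5 of 18678. The cause of these moves was not tested. All other settings left these 4 counts at 0.

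No paired analysis was possible because no mouse number recurs in a second group. The study's methods call the controls littermates but tie no mouse number to a litter or day. With 3 mice per group and an interaction that rests on 4 group means, a small difference between the genotypes' responses cannot be detected, and counts under about 20 in a library, as in Dkk1, Dkk4 and Wnt8a, limit what can be read from those genes.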
